A study of Rattus norvegicus with 20 samples.

Results

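The genes described here are 8 that set the tone of kidney blood vessels: Edn1, Ednra and Ednrb of the endothelin system, Nos1 and Nos3 of nitric oxide synthesis, Ptgs1 and Ptgs2 of prostaglandin synthesis, and Vegfa. They were chosen by gene name, as vasoconstrictor and vasodilator genes tied to the vascular toxicity of calcineurin inhibitors, not by a threshold on their values, though with earlier results of these data known. All 8 were found, of 32907 genes listed in the expression tables of 20 rat kidney samples. Each library came from the whole kidney of a wild-type male Wistar rat of 10 to 12 weeks. Treatment ran for 28 days from a subcutaneous osmotic minipump. One table held 4 rats given saline vehicle and 4 given cyclosporine A. The other held 6 rats given a vehicle of 25% DMSO and 75% PEG and 6 given tacrolimus to a target trough level of 3.5 ng/ml. Both drugs inhibit calcineurin. Each drug was compared with its own vehicle, to ask how each moved these genes. The vehicles differed, and the tables were scaled differently, so levels were not compared across tables. Whole kidney mixes all cell types, so in these samples fewer cells of a type and less RNA per cell cannot be told apart.

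Endothelin-1, the peptide made from Edn1, constricts vessels through the ETA receptor (Ednra) on smooth muscle, while the ETB receptor (Ednrb) on endothelium and collecting duct clears the peptide and releases nitric oxide. Nitric oxide made by endothelial (Nos3) and neuronal (Nos1) synthase relaxes smooth muscle through soluble guanylate cyclase, and in the kidney Nos1 is best known from the macula densa. The cyclooxygenases, constitutive Ptgs1 and inducible Ptgs2, make the precursor of prostaglandin E2, prostacyclin and thromboxane, and Vegfa maintains the renal capillaries. Loss of vasodilators and gain of endothelin are textbook features of the vasoconstriction caused by calcineurin inhibitors in the kidney.

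Calcineurin activates NFAT transcription factors, whose core DNA motif is GGAAA. The 250 bases before the start site are therefore shown for Edn1 and Ptgs2, the member with the smallest p under cyclosporine A and the member with the most copies of the motif in 1 promoter, and for Ptges and Ptger4, the pathway genes that passed the test below. The sequences are from RefSeq, build GRCr8, 5′ to 3′ on the gene's strand, with GGAAA or its reverse complement TTTCC in capitals.
Edn1, chr17:22666688-22666937, minus strand: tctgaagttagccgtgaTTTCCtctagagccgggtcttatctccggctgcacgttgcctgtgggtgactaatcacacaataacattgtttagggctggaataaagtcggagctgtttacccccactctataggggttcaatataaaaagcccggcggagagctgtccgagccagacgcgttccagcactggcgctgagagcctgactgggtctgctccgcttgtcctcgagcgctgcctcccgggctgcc
Ptgs2, chr13:64713813-64714062, plus strand: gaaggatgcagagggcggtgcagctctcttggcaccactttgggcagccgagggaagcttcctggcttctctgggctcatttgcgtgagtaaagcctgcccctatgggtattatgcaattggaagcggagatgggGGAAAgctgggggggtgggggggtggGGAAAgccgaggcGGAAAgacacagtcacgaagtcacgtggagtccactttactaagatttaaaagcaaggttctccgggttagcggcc
Ptges, chr3:34586988-34587237, minus strand: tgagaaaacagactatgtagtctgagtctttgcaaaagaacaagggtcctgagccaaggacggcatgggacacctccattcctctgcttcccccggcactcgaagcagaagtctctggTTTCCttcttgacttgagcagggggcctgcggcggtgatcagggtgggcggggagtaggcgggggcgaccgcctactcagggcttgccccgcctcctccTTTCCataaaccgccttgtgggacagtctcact
Ptger4, chr2:56073523-56073772, minus strand: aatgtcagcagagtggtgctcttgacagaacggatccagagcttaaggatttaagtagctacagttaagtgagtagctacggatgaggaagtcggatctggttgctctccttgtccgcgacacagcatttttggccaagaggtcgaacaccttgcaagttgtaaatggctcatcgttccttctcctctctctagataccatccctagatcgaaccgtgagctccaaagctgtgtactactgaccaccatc
Ptgs2 held 3 copies as GGAAA, Ptges 2 and Edn1 1 as TTTCC, and Ptger4 none in this window. Among the 8 members, 9 promoters were matched (Vegfa has 2), and 7 of the 9 held the motif on either strand. The motif was in 56.9% of 33465 RefSeq rat promoters of the same length, which is the background for that count. A match is a string of letters and not a measured binding site.

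In the cyclosporine A table, 30468744 to 34308793 fragments per library were assigned to genes. The mitochondrial genome took 59.8% ± 7.97 of them with saline (SD, n = 4) and 84.7% ± 4.68 with cyclosporine A (SD, n = 4), with no overlap (two-sided exact permutation p = 0.0286, the smallest this design allows). Nuclear genes were left with 10283949 to 17256642 fragments with saline and 2905823 to 6549243 with cyclosporine A. As deposited, FPKM (fragments over transcript length and library total) was relative to all of these fragments, and the median gene tested had a log2 change of -0.89 with the drug. Values for cyclosporine A were rescaled so that the typical gene was level between libraries (median change -5e-04), and each member's change as deposited is given as well. The tacrolimus table held 31670202 to 39358485 fragments per library and a mitochondrial share of 11.9% ± 1.13 with vehicle and 12.4% ± 1.88 with tacrolimus (SD, n = 6, two-sided exact permutation p = 0.606). The part of the mitochondrial share in the results for cyclosporine A was not tested. All 8 markers of the proximal tubule, the bulk of the kidney, were tested in both tables, and their summed level was 505 to 738 rescaled FPKM with saline and 260 to 607 with cyclosporine A. Of the 8, 2 had positive and 6 negative rescaled changes, and 1, Slc5a2, was called, higher (limma adjusted p = 0.0384). Changes below are differences of log2(FPKM + 1), which understates the change of low genes, and adjusted p-values are limma with Benjamini-Hochberg adjustment over all genes tested.

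None of the 8 genes passed the test with either drug. With cyclosporine A, 0 of 8 were called at an adjusted p under 0.05, against 0.609% of all 13454 genes tested on the rescaled scale, and 1 of 8, Edn1, had an unadjusted p under 0.05, against 16.2% of all. With tacrolimus, 0 of 8 were called, against 0.303% of 15493 genes, and 1 of 8, Nos3, had an unadjusted p under 0.05, against 8.58%. The median change of the 8 was 0.05 with cyclosporine A and -0.05 with tacrolimus, on a background median near 0 for both. Under tacrolimus 0 of 8 had groups that did not overlap, against 0.975% of all genes. All 8 passed the filter on low values in both tables. Nos1 and Ptgs2, at saline means of 0.110 and 0.133 rescaled FPKM, had little room to be called lower with cyclosporine A, since 1 is added before the log2. The dependence on scale was large: with the values as deposited, 6 of 8 were called lower with cyclosporine A, against 80.9% of all genes, so the members' share was near the background. On that scale 4 of 8, Ednrb, Nos1, Ptgs1 and Vegfa, had all drug libraries below all saline libraries, against 67.9% of all genes.

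By level, Vegfa stood first in every group. In the tacrolimus table's vehicle group the order by mean FPKM was Vegfa 71.2, Ednrb 16.8, Ptgs1 8.61, Nos3 2.82, Edn1 1.96, Ednra 1.34, Ptgs2 1.15 and Nos1 0.784. The first 4 did not overlap one another across the 6 libraries, Nos3 and Edn1 were apart by the narrowest margin, and Edn1 and Ednra, Ednra and Ptgs2, and Ptgs2 and Nos1 overlapped. In the saline group the rescaled order was Vegfa 14.4, Ptgs1 3.54, Ednrb 1.71, Edn1 0.453, Nos3 0.410, Ednra 0.277, Ptgs2 0.133 and Nos1 0.110. The first 3 did not overlap one another or Edn1 there, and each neighbouring pair from Edn1 down did. The 5 genes from Edn1 down were all below 1 rescaled FPKM in saline.

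**Figure D1:**
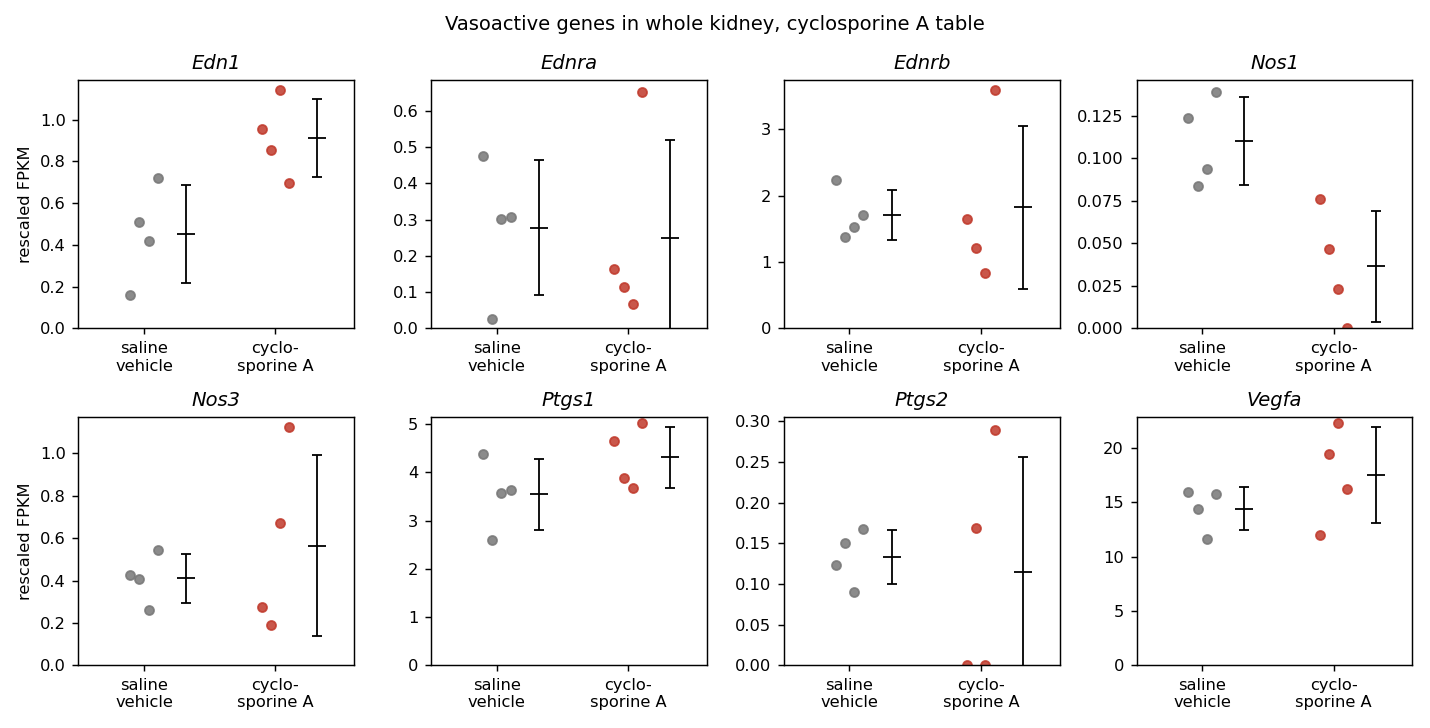
Rescaled FPKM of the 8 genes in each saline vehicle (grey) and cyclosporine A (red) library, 1 panel per gene with its own axis from 0; points are rats, and the bar and whiskers are mean ± SD (n = 4). Edn1 is higher in 3 of 4 cyclosporine A libraries than in any saline library, and Nos1 is lower in all 4. Nos1 passed the filter through its saline libraries alone, and 6.11% of all genes tested were apart in that direction.

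Edn1 (ENSRNOG00000014361, chromosome 17, 22137324 to 22143324, minus strand, in the deposited coordinates, with the build named as rn6 in the submitters' processing notes) was the member with the smallest p under cyclosporine A. Its rescaled FPKM was 0.158, 0.510, 0.421 and 0.723 with saline and 0.954, 0.853, 1.14 and 0.697 with cyclosporine A. Of the drug libraries, 3 lay above every saline library, and the lowest lay just under the highest saline library. The log2 change was 0.41 (SE 0.14, 95% interval 0.09 to 0.72, unadjusted p = 0.0159), which did not survive adjustment (limma adjusted p = 0.196). The values rested on 15 to 52 fragments with saline and 13 to 37 with cyclosporine A. As deposited, the same libraries read 0.704 ± 0.381 and 0.606 ± 0.231 (SD, n = 4), a change of -0.07 (limma adjusted p = 0.693). With tacrolimus, Edn1 had a lowest, median and highest FPKM of 1.36, 2.13 and 2.38 in vehicle rats and 1.58, 1.96 and 2.34 in treated rats. All 6 treated libraries lay within the vehicle range, and the change was 0.0030 (SE 0.10, 95% interval -0.22 to 0.23, limma adjusted p = 0.997).

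Ednra, the constricting ETA receptor (ENSRNOG00000012721, chromosome 19, 33928356 to 33991703, plus strand), varied more between rats than between groups. Its rescaled FPKM was 0.474, 0.0251, 0.300 and 0.308 with saline and 0.163, 0.114, 0.0660 and 0.651 with cyclosporine A. The lowest of all 8 libraries was a saline one, with 2 fragments, and the highest was a drug one, with 17. These are the smallest counts that the deposited values allow. The change was -0.04 (SE 0.16, 95% interval -0.40 to 0.31, limma adjusted p = 0.927), and as deposited it was -0.37 (limma adjusted p = 0.0328). With tacrolimus the vehicle libraries ran from 0.874 through a median of 1.24 to 1.92 FPKM and the treated ones from 1.13 through 1.56 to 1.81. The treated libraries lay inside the vehicle range, 5 of 6 at or above its median, with a change of 0.12 (SE 0.10, limma adjusted p = 0.843).

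Ednrb, the ETB receptor (ENSRNOG00000010997, chromosome 15, 88006977 to 88036354, minus strand), read 2.23, 1.37, 1.52 and 1.71 rescaled FPKM with saline and 1.65, 1.21, 0.839 and 3.59 with cyclosporine A. The drug group held both the lowest and the highest library, and the change was -0.02 (SE 0.26, 95% interval -0.60 to 0.56, limma adjusted p = 0.98). As deposited, all 4 drug libraries (0.619 to 1.52 FPKM) were below all 4 saline libraries (1.71 to 4.44 FPKM), with a change of -0.88 (limma adjusted p = 0.00301), close to the -0.89 of the median gene. In the tacrolimus table the vehicle libraries gave 12.1, a median of 17.3 and 24.3 FPKM and the treated ones 11, 15.9 and 17.1. The treated libraries all fell below the vehicle median, 1 of them below the vehicle minimum, but the change of -0.12 (SE 0.15, 95% interval -0.45 to 0.22) was within the spread (limma adjusted p = 0.911).

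As a description, the ratio of ETA to ETB receptor FPKM was 0.212, 0.0183, 0.198 and 0.180 with saline and 0.0991, 0.0945, 0.0787 and 0.181 with cyclosporine A. In the drug group 3 libraries lay between the lowest saline library and the other 3, and the fourth was level with the lower end of those. With vehicle in the tacrolimus table the ratio was 0.0694 to 0.0983 (median 0.0758), and with tacrolimus it was 0.0775 to 0.138 (median 0.105), so the groups overlapped. Ratios within a table do not depend on its scaling, but the Ednra values in the cyclosporine A table used a shorter transcript length than in the tacrolimus table, and so the ratio cannot be set across tables.

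The other endothelin genes were the peptide gene Edn3, the converting enzymes Ece1 and Ece2 and the degrading enzyme Mme. Of the list's 6 genes, 3 were tested with cyclosporine A and 4 with tacrolimus, and 0 passed on the rescaled scale or with tacrolimus. As deposited all 3 were called lower with cyclosporine A, as were 80.9% of all genes. The 3 tested with cyclosporine A all had negative rescaled changes. Ece1 was 1.39 ± 0.330 with saline and 0.969 ± 0.181 with the drug (SD, n = 4, change -0.27, limma adjusted p = 0.372) and Edn3 2.00 ± 0.733 and 1.62 ± 0.783 (limma adjusted p = 0.73). Mme, neprilysin, which degrades endothelin and was named after its values were seen, read 47.9 ± 11.2 and 35.3 ± 6.08 (change -0.41, limma adjusted p = 0.29). With tacrolimus, Ece1 read 17.0 ± 1.64 and 16.3 ± 0.827 and Edn3 3.41 ± 0.608 and 2.91 ± 0.513 (SD, n = 6, limma adjusted p = 0.896 and 0.737). Edn2 was listed at 0 in all 20 libraries. A count of 0 allows up to 3 fragments in a library, for counting error only.

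Nos1 (ENSRNOG00000001130, chromosome 12, 44213943 to 44520341, minus strand) was the only member whose groups did not overlap on the rescaled scale. It read 0.124, 0.0835, 0.0940 and 0.139 rescaled FPKM with saline and 0.0763, 0.0467, 0.0231 and 0 with cyclosporine A, from 47, 19, 25 and 40 fragments against 8, 7, 3 and 0. All 4 drug libraries were below all 4 saline libraries, and the fourth drug library's 0 allows up to 0.0402 rescaled FPKM. Nos1 met the filter of 10 fragments through its saline libraries alone, so it was tested only because it was higher there, and nothing is read from its separation beside the 6.11% of all genes tested whose groups were apart in that direction. The change was -0.10 (SE 0.07, 95% interval -0.25 to 0.05, limma adjusted p = 0.5), and as deposited it was -0.20 (limma adjusted p = 0.0441). At a saline mean of 0.110 rescaled FPKM, the added 1 left little room for a fall. Not being called on the rescaled scale therefore says little about a loss of Nos1. The summed rescaled FPKM of 7 thick ascending limb and macula densa markers was 414 to 693 with saline and 271 to 357 with cyclosporine A, with 6 of the 7 at negative changes, 1 of them called (Umod). Umod made most of the difference between those sums (327 with saline and 127 with cyclosporine A on average), followed by Slc12a1 (60.8 and 31.3), while Kcnj1, Enox1 and Ppp1r1a had changes of -0.11, -0.04 and -0.0023; their part in the Nos1 values was not tested. With tacrolimus, Nos1 ran from 0.445 through a median of 0.695 to 1.27 FPKM in vehicle and from 0.702 through 0.851 to 0.966 in treated rats. The treated libraries were all at or above the vehicle median and inside its range, with a change of 0.06 (SE 0.10, limma adjusted p = 0.934).

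Nos3, the endothelial synthase (ENSRNOG00000009348, chromosome 4, 7320668 to 7342410, minus strand), had the smallest p of the 8 under tacrolimus. Its vehicle libraries ran from 2.39 through a median of 2.76 to 3.60 FPKM and its treated libraries from 1.66 through 2.31 to 2.82. Of the treated libraries, 4 of 6 lay below every vehicle library and 5 of 6 below the vehicle median, though the groups overlapped. The change was -0.24 (SE 0.10, 95% interval -0.44 to -0.03, unadjusted p = 0.0291, limma adjusted p = 0.481). Of 9 endothelial markers, 0 were called with tacrolimus and 8 had a positive change, with a summed level of 232 to 317 FPKM in vehicle and 240 to 308 in treated rats. With cyclosporine A, Nos3 read 0.424, 0.408, 0.260 and 0.546 rescaled FPKM with saline and 0.276, 0.193, 0.669 and 1.12 with the drug. Of the drug libraries 2 lay above all saline libraries, 1 below all of them and 1 below 3 of them, and the change was 0.12 (SE 0.18, limma adjusted p = 0.799). As deposited the change had the opposite direction, -0.33 (limma adjusted p = 0.0434). Of the 9 endothelial markers, 7 had negative rescaled changes with cyclosporine A and 0 were called, with a summed level of 31.2 to 54.8 with saline and 24.5 to 41.5 with the drug. Plvap, of fenestrated endothelium and named after its values were seen, made most of that difference, at 14.4 with saline and 2.67 with cyclosporine A on average (limma adjusted p = 0.0677), and the part of these markers in the Nos3 values was not tested.

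The ratio of Edn1 to Nos3, vasoconstrictor to vasodilator, has no test here. It was 0.372, 1.25, 1.62 and 1.32 with saline and 3.46, 4.43, 1.71 and 0.622 with cyclosporine A. Of the drug libraries, 3 lay above all saline libraries and the other lay below 3 of them. In the tacrolimus table it ran from 0.523 through a median of 0.706 to 0.866 with vehicle and from 0.597 through 0.907 to 1.12 with tacrolimus, with overlap. The ratio of Nos1 to Nos3 was 0.204 to 0.361 with saline and 0 to 0.277 with cyclosporine A, and 0.161 to 0.382 with vehicle and 0.304 to 0.500 with tacrolimus.

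Around the synthases, 22 genes of nitric oxide synthesis and signalling were tested with cyclosporine A and 27 with tacrolimus, and 0 were called on the rescaled scale or with tacrolimus. Of the 22, 13 had a positive and 9 a negative rescaled change (median 0.03), whereas as deposited all 22 were negative (median -0.94) and 18 were called lower, against the 80.9% of all genes. Of the 27 tested with tacrolimus, 14 had a positive and 13 a negative change (median 0.04). Both subunits of soluble guanylate cyclase, the nitric oxide receptor, had positive changes with cyclosporine A on the rescaled scale and negative ones as deposited. Gucy1a1 was 0.471 ± 0.0842 with saline and 0.848 ± 0.685 with cyclosporine A (limma adjusted p = 0.58), and Gucy1b1 0.416 ± 0.132 and 0.969 ± 0.734 (SD, n = 4, limma adjusted p = 0.381). With tacrolimus, Gucy1a1 read 6.30 ± 1.30 and 7.20 ± 1.24 and Gucy1b1 5.02 ± 1.04 and 5.62 ± 0.932 (SD, n = 6, limma adjusted p = 0.805 and 0.846).

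Of the regulators, Cav1, the caveolar protein that holds Nos3 inactive, was 11.5 ± 1.38 FPKM with vehicle and 8.63 ± 1.27 with tacrolimus (SD, n = 6), a change of -0.38 (SE 0.09, unadjusted p = 0.00135, limma adjusted p = 0.147). Its vehicle range of 9.77 to 13.6 overlapped the treated range of 7.48 to 10.9. Of the alternatives that kept all libraries, 1 called Cav1 lower with tacrolimus and 7 did not. Cav1 is abundant in fat as well as endothelium, and the summed FPKM of 6 adipocyte markers was 86.9 to 279 with vehicle and 49.7 to 154 with tacrolimus; all 6 had negative changes, 1 was called (Ucp1), none was at 0 and the part of this in the Cav1 and Nos3 values was not tested. Ddah1, which breaks down the endogenous inhibitor of the synthases, was 53.8 ± 7.08 and 47.2 ± 15.2 rescaled FPKM with saline and cyclosporine A (limma adjusted p = 0.663) and 207 ± 27.2 and 232 ± 29.2 FPKM with vehicle and tacrolimus (limma adjusted p = 0.711). Nos2, the inducible synthase, was listed at 0 in all 8 libraries of the cyclosporine A table and in all but 2 vehicle libraries of the other, which held 4 and 1 fragments.

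**Figure D2:**
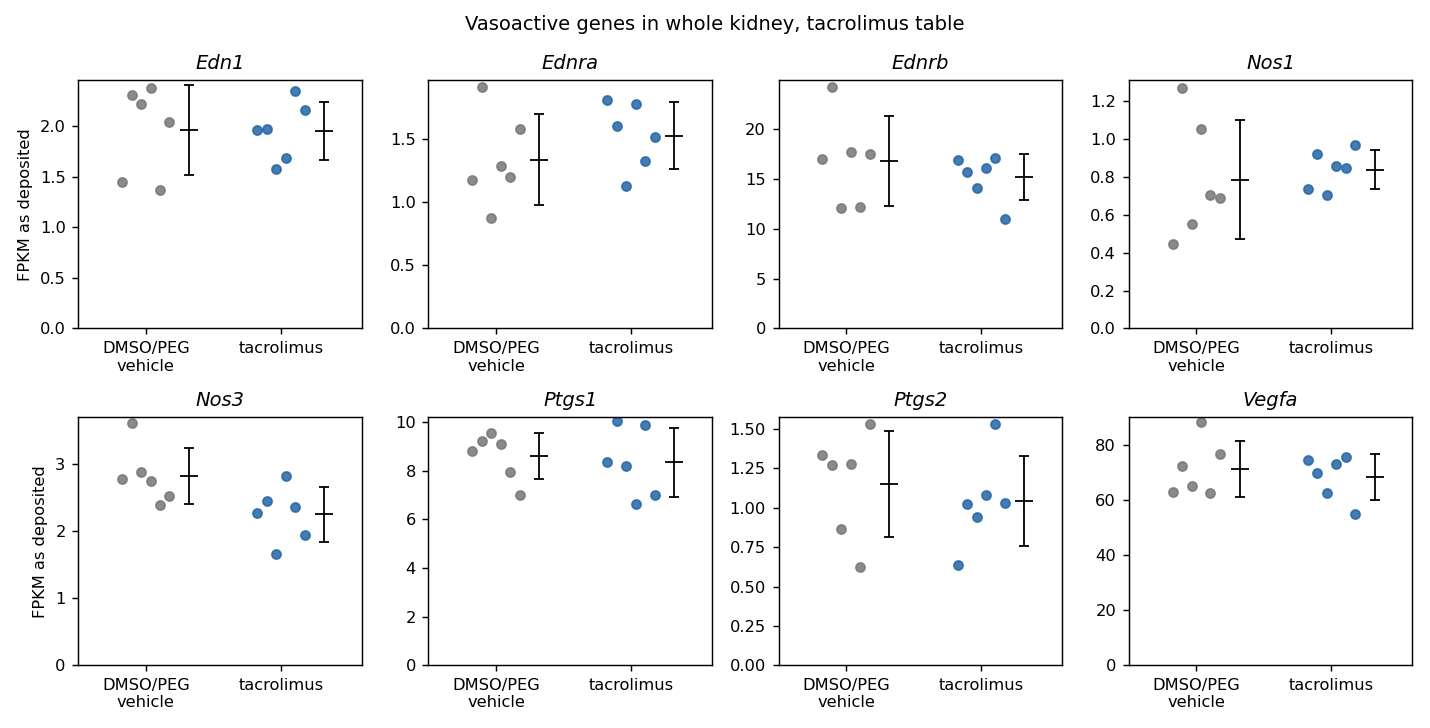
FPKM as deposited of the 8 genes in each DMSO/PEG vehicle (grey) and tacrolimus (blue) library, 1 panel per gene with its own axis from 0; points are rats, and the bar and whiskers are mean ± SD (n = 6). The groups overlap in every panel, and Nos3 shows the largest shift, with 4 of 6 tacrolimus libraries below the lowest vehicle library.

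Ptgs1, the constitutive cyclooxygenase (ENSRNOG00000007415, chromosome 3, 15560712 to 15582344, plus strand), was well counted in every library, with at least 189 fragments. It read 4.37, 2.59, 3.57 and 3.63 rescaled FPKM with saline and 4.66, 3.89, 3.67 and 5.03 with cyclosporine A. All 4 drug libraries lay above 3 of the saline libraries, and the change was 0.23 (SE 0.16, 95% interval -0.11 to 0.58, limma adjusted p = 0.499). As deposited it was 3.23 to 8.70 with saline and 2.13 to 3.17 with cyclosporine A, a change of -0.83 (limma adjusted p = 0.00919), so the direction depended on the scaling. With tacrolimus the vehicle libraries ran from 7.01 through 8.95 to 9.57 FPKM and the treated ones from 6.65 through 8.27 to 10.0. The treated range was the wider on both sides, and the change was -0.05 (SE 0.10, limma adjusted p = 0.949).

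Ptgs2, the inducible cyclooxygenase (ENSRNOG00000002525, chromosome 13, 67351087 to 67359335, plus strand), read 0.124, 0.151, 0.0908 and 0.168 rescaled FPKM with saline and 0, 0.169, 0 and 0.290 with cyclosporine A. The drug group held 2 libraries with no fragment and the highest library of the 8. Those zeros allow up to 0.0364 and 0.0294 rescaled FPKM, both below every saline library. The change was -0.03 (SE 0.10, 95% interval -0.25 to 0.19, limma adjusted p = 0.911), and as deposited it was -0.19 (limma adjusted p = 0.0746). With tacrolimus the vehicle libraries ran from 0.623 through 1.28 to 1.53 FPKM and the treated ones from 0.640 through 1.03 to 1.53. The ranges were nearly the same at both ends, though 5 of 6 treated libraries were below the vehicle median, and the change was -0.07 (SE 0.12, limma adjusted p = 0.934). The ratio of Ptgs2 to Ptgs1 FPKM was 0.0254 to 0.0583 with saline and 0 to 0.0577 with cyclosporine A, and 0.0785 to 0.218 with vehicle and 0.0765 to 0.163 with tacrolimus.

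Further along the pathway, 2 genes passed the test, 1 with each drug. Of 13 prostaglandin genes tested with cyclosporine A, 1 was called higher on the rescaled scale and none lower, against 0.327% of all genes called higher. As deposited none was called higher and 11 of the 13 were called lower, against 80.9% of all genes. It was Ptges, the microsomal prostaglandin E synthase that turns the cyclooxygenase product into prostaglandin E2. Ptges read 4.73, 5.30, 5.38 and 7.09 rescaled FPKM with saline and 13.2, 11.2, 8.41 and 11.9 with cyclosporine A, with every drug library above every saline library, as for 4.81% of all genes tested. The change was 0.87 (SE 0.16, limma adjusted p = 0.0489). As deposited it had a change of -0.31 and overlapping groups (limma adjusted p = 0.296), and leaving out any 1 of the 8 libraries ended the call. With all libraries kept, pseudocount 0.1 (adjusted p = 0.0515), no filter (0.0955), the replicate block (0.0892) and arrayWeights (0.0548) ended it too, and 4 other settings kept it (limma for each).

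Ptges is known from the collecting duct, among other places. The summed rescaled FPKM of 9 principal cell and collecting duct entries was 169 to 250 with saline and 177 to 324 with cyclosporine A, all 9 with positive changes and 0 called. The summed level of urothelial markers was 2.64 to 5.66 with saline and 10.5 to 23.2 with cyclosporine A, and 2 of the 5 tested, Upk1a and Sprr1a, were called higher; none of the 6 was at 0. The part of either list in the Ptges result was not tested. With tacrolimus, Ptges was 9.98 ± 0.984 in vehicle and 11.1 ± 1.35 in treated rats (SD, n = 6, limma adjusted p = 0.699).

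With tacrolimus, 1 of 17 prostaglandin genes tested was called, lower, against 0.284% of all genes called lower. It was Ptger4, the EP4 receptor, which relaxes vessels in response to prostaglandin E2. Ptger4 ran from 4.50 through a median of 6.07 to 6.31 FPKM with vehicle and from 3.10 through 3.89 to 4.34 with tacrolimus. Every treated library lay below every vehicle library, as for 0.671% of all genes, and the change was -0.48 (SE 0.09, limma adjusted p = 0.0379). Leaving out 1 library ended the call in 11 of 12 cases. With all libraries kept, scaling to all assigned fragments (adjusted p = 0.0825), no filter (0.0635) and voom (0.0514) also ended it, and 5 other settings kept it (limma for each). EP4 is carried by leukocytes and smooth muscle among other cells: 0 of 8 leukocyte markers were called, with a summed FPKM of 425 to 648 in vehicle and 427 to 652 in treated rats. That sum is mostly Cd74 (474 FPKM on average in vehicle and 504 in treated rats), and 6 of the 8 had negative changes. Of 9 smooth muscle and pericyte markers, 0 were called, 4 had positive and 5 negative changes, and their summed FPKM was 90.0 to 136 in vehicle and 91.5 to 121 in treated rats. None of these markers was at 0 in all libraries, while the 6 adipocyte markers given above with Cav1 all had negative changes. The part of any of these lists in the Ptger4 result was not tested. In the cyclosporine A table Ptger4 had 0 to 13 fragments and was not tested.

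The remaining prostaglandin E receptors did not pass. Ptger1, the EP1 receptor, was 11.7 ± 1.56 with vehicle and 9.47 ± 0.916 with tacrolimus (change -0.27, limma adjusted p = 0.366), Ptger2 0.515 ± 0.0776 and 0.380 ± 0.118 (limma adjusted p = 0.552) and Ptger3 33.5 ± 3.58 and 29.8 ± 3.63 (SD, n = 6, limma adjusted p = 0.671). With cyclosporine A, Ptger3 was 7.58 ± 1.67 and 5.54 ± 0.847 rescaled FPKM (limma adjusted p = 0.313) and Ptger1 3.80 ± 0.398 and 4.25 ± 1.76 (SD, n = 4, limma adjusted p = 0.94). Hpgd, which inactivates prostaglandins, was 7.75 ± 3.40 and 4.70 ± 1.24 with cyclosporine A (change -0.56, limma adjusted p = 0.35) and 22.8 ± 2.97 and 20.6 ± 3.40 with tacrolimus (limma adjusted p = 0.795). The prostacyclin synthase Ptgis was 0.893 ± 0.222 and 0.954 ± 0.314 with tacrolimus (limma adjusted p = 0.961) and its receptor Ptgir 0.955 ± 0.196 and 1.22 ± 0.259 (limma adjusted p = 0.617). The thromboxane genes Tbxas1 and Tbxa2r had changes of -0.01 and 0.03 with cyclosporine A and 0.11 and 0.12 with tacrolimus, and neither was called.

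**Figure D3:**
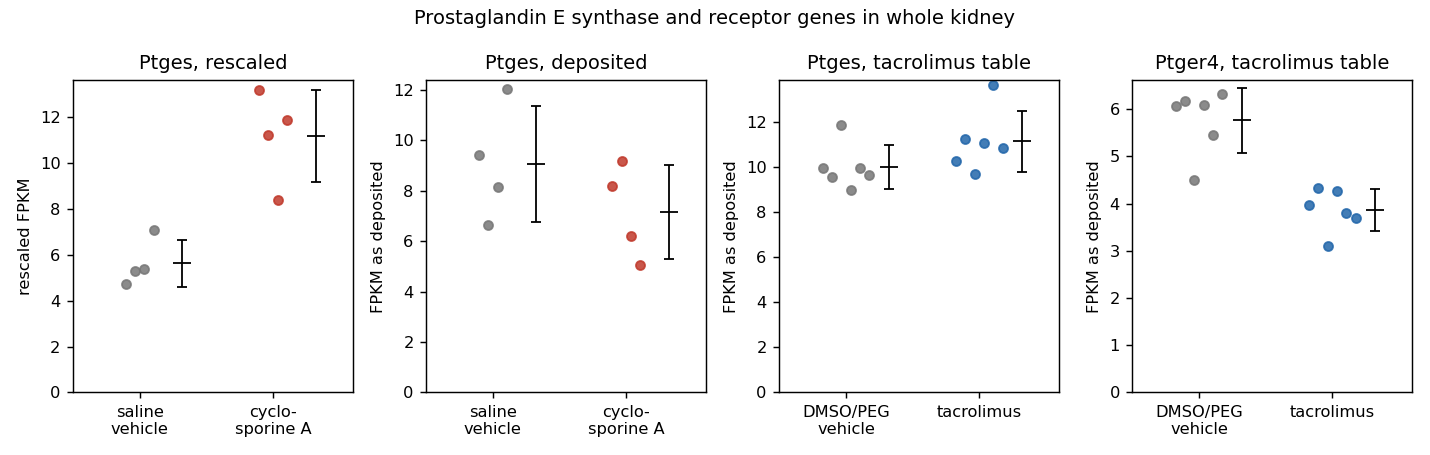
FPKM of Ptges in the cyclosporine A table, rescaled and as deposited, and of Ptges and Ptger4 in the tacrolimus table; points are rats, the bar and whiskers are mean ± SD, and axes start at 0. Ptges separates the groups on the rescaled scale (5.63 ± 1.02 and 11.2 ± 2.02) but not as deposited, and Ptger4 separates vehicle (5.76 ± 0.686) from tacrolimus (3.86 ± 0.451).

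Vegfa (ENSRNOG00000019598, chromosome 9, 17340341 to 17355681, plus strand) was the best counted member. It had 626 to 3133 fragments per library beside cyclosporine A and its saline control, and 6471 to 11274 in the tacrolimus table. It read 15.9, 14.4, 11.6 and 15.7 rescaled FPKM with saline and 12, 19.4, 22.3 and 16.2 with cyclosporine A. Of the drug libraries, 3 lay above all saline libraries and 1 near the lowest, and the change was 0.24 (SE 0.18, 95% interval -0.17 to 0.65, limma adjusted p = 0.562). As deposited all 4 drug libraries (6.85 to 16.4) were below all 4 saline libraries (17.5 to 31.7), a change of -1.01 (limma adjusted p = 0.00904). With tacrolimus the vehicle libraries ran from 62.5 through 68.7 to 88.3 FPKM and the treated ones from 54.7 through 71.3 to 75.5. The treated median was the higher but the change was -0.06 (SE 0.10, limma adjusted p = 0.934).

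Among the VEGF receptors and related ligands, 0 of 8 tested were called with cyclosporine A on the rescaled scale and 0 of 9 with tacrolimus. As deposited 7 of the 8 were called lower with cyclosporine A, near the share of 80.9% over all genes. Flt1 was 1.42 ± 0.341 with saline and 1.30 ± 0.293 with cyclosporine A (limma adjusted p = 0.856), and Kdr, the main endothelial receptor, 1.32 ± 0.182 and 1.75 ± 0.364 (SD, n = 4, limma adjusted p = 0.43). With tacrolimus, Flt1 was 9.24 ± 1.53 and 8.66 ± 1.06 and Kdr 10.8 ± 1.49 and 11 ± 1.01 (SD, n = 6, limma adjusted p = 0.911 and 0.958). The ratio of Vegfa to Kdr FPKM was 10.5, 10.5, 10.7 and 12 with saline and 8.07, 13.6, 10.1 and 8.74 with cyclosporine A, on both sides of the saline values. It was 5.71 to 7.59 with vehicle and 5.04 to 6.83 with tacrolimus.

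The changes with the 2 drugs were also set against each other. The difference between the change with cyclosporine A (rescaled) and the change with tacrolimus passed adjustment for 0 of the 8, against 1.61% of 13391 genes tested, and 1 of 8 had an unadjusted p under 0.05, against 16% of all. Edn1 had the smallest p: its change of 0.41 under cyclosporine A exceeded that of 0.0030 under tacrolimus by 0.40 (SE 0.17, 95% interval 0.04 to 0.77, unadjusted p = 0.0323, limma-based adjusted p = 0.262). For Nos3 the difference was 0.35 (95% interval -0.07 to 0.78), for Vegfa 0.30 (-0.14 to 0.74) and for Ptgs1 0.28 (-0.11 to 0.67). For Nos1 it was -0.16 (-0.41 to 0.09), for Ednra -0.16 (-0.56 to 0.24), for Ednrb 0.10 (-0.54 to 0.73) and for Ptgs2 0.04 (-0.28 to 0.36). With deposited values 4 of 8 passed, Ednra, Ednrb, Ptgs1 and Vegfa, all lower with cyclosporine A, against 74.9% of all genes. That comparison set cyclosporine A values relative to library totals beside tacrolimus values deposited with the typical gene level between libraries. The drugs also differed in vehicle, animals per group and the state of the libraries, and these cannot be told apart from the drug. The added 1 also shrinks changes more where values are lower, as they were for these genes in the cyclosporine A table. Nos1, for example, averaged 0.110 rescaled FPKM with saline and 0.784 FPKM with the DMSO/PEG vehicle.

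**Figure D4:**
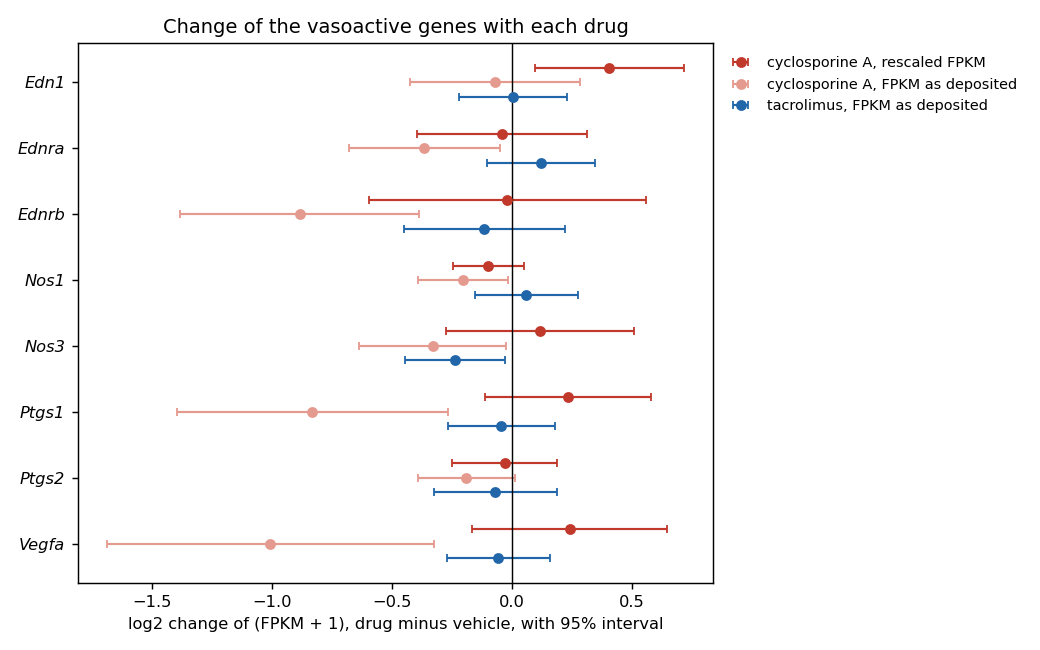
Log2 change of (FPKM + 1), drug minus its own vehicle, of the 8 genes with 95% intervals from limma: cyclosporine A rescaled (red), cyclosporine A as deposited (pale red) and tacrolimus as deposited (blue). On the rescaled scale only Edn1 has an interval above 0 (0.09 to 0.72), for tacrolimus only Nos3 has one below 0 (-0.44 to -0.03), and the deposited cyclosporine A values lie to the left of the rescaled ones for every gene.

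Across libraries, the genes most like each member were found from deviations from the group mean, by the lower of Pearson's r in the cyclosporine A table (8 libraries) and in the tacrolimus table (12 libraries). The 2 highest of 13391 genes tested in both tables were kept for each member, so high r is expected from the search alone. No background r was taken. In the cyclosporine A table, r for Ptgs2 (drug libraries with no fragment) and Ednra (a drug library far above the others) may rest on few libraries. Libraries of that table also differed in depth, with 2905823 to 17256642 nuclear fragments, and the part of depth in these r was not tested. Ednrb had the closest neighbours, Abca1 (r = 0.92 and 0.93), a cholesterol exporter, and Mpeg1 (r = 0.91 and 0.90), a macrophage gene. Ptgs1 was nearest Slc14a2, the urea transporter of the inner medullary collecting duct (r = 0.91 and 0.92), and Capg (r = 0.83 and 0.80). Vegfa followed LOC102549817 (r = 0.87 and 0.88) and LOC100360638 (r = 0.90 and 0.84), and Ednra followed the complement protease C1s (r = 0.84 and 0.88) and the collagen Col12a1 (r = 0.88 and 0.83). Nos3 followed Amigo2 (r = 0.87 and 0.83) and the collagen Col8a2 (r = 0.81 and 0.84), and Ptgs2 followed Uckl1 (r = 0.95 and 0.82) and Tle6 (r = 0.94 and 0.80). Nos1 followed Rab6b (r = 0.90 and 0.81) and Polrmt (r = 0.79 and 0.79), and Edn1 had the weakest neighbours, Inf2 (r = 0.83 and 0.77), an actin regulator of podocytes, and Lat (r = 0.70 and 0.68), a T cell adaptor.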

How the data were processed

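Total RNA from whole kidneys was sequenced with NEBNext libraries, per the labels' protocols. Reads were aligned with HISAT2 and the build was rn6, per the submitters' processing notes, which give no roles; the counting program and annotation are not given in the sources used here. The authors deposited FPKM in 2 tables. Of the values for tacrolimus and its vehicle, 100% were whole fragments once multiplied by the listed length (tolerance 0.01). Of those for cyclosporine A and saline, 74.6% were, and 4441 genes, Ednra, Nos1 and Vegfa among them, needed a shorter length. The shortest length that gave whole fragments was taken, so counts of such genes are the smallest that their values allow. Cyclosporine A values, deposited relative to library totals, were rescaled by median-of-ratios size factors of the recovered fragments. Tacrolimus values were used as deposited, and these already followed such size factors (largest deviation 2.9e-13%). The deposited values of the 2 tables are therefore not on the same kind of scale.

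Genes needed 10 fragments at the median library size in as many libraries as the smaller group and 15 in all. log2(FPKM + 1) was fitted with limma 3.58.1 (R 4.3.3) with a trended prior and Benjamini-Hochberg adjustment over all genes, each table alone. The drugs' changes were compared with Satterthwaite degrees of freedom. The steps were tested on simulated data: 100% of 100 genes changed by a log2 of 1 and of 100 changed by 2 were recovered in each comparison, with 18 false calls among 13476 genes in the cyclosporine A simulation and 8 among 15526 in the tacrolimus one. The changed genes were drawn from well-counted genes only, and the same low spread between replicates was set for every gene. Recovery of genes as low as Edn1, Ednra, Nos1, Nos3 and Ptgs2 in the cyclosporine A table was therefore not examined. No replicate pair looked like a repeated library (chi-square per degree of freedom at least 12.2). The labels name separate samples but do not say how animals were batched, so p-values measure the spread between these samples, which may be technical. Limits for a count of 0 cover counting error only, since copies made by PCR are not independent molecules.

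The members and gene lists were chosen with earlier results of these data known. Named genes were the 8 members, 21 fixed genes of their pathways (1 is not reported here), any list gene called, and for each member the 2 genes with the most similar deviations. Alternatives were deposited scaling, nuclear scaling, pseudocount 0.1, no filter, a mean of at least 1 FPKM, a replicate block, limma without trend, arrayWeights, voom and leaving out each library. The tests of the deposited members with each library left out were added after seeing the data.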

Additional observations from a re-analysis of the deposited data

Results flagged for a closer look

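In 52 groups of 4 or 6 libraries, 3 had a lowest or highest library far from the others by Dixon's test, and chance alone marks about 1 group in 20. Ednra in cyclosporine A replicate 4 read 0.651 rescaled FPKM against 0.0660 to 0.163 in the other 3. The Ednra to Ednrb ratio in saline replicate 2 was 0.0183 against 0.180 to 0.212 in the others, on 2 fragments of Ednra. The Vegfa to Kdr ratio in saline replicate 4 was 12 against 10.5 to 10.7.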

How the results depend on the processing

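The number of genes called is the least stable result. With cyclosporine A it was 82, but 10911 as deposited, 1 with no filter, 6 with a replicate block, 151 with arrayWeights, 269 with voom and 1 to 139 without 1 library (2, 22, 3 and 1 without saline replicates 1 to 4, and 27, 18 and 139 without cyclosporine A replicates 1, 3 and 4). With tacrolimus it was 47, with 77 under arrayWeights, 44 under the replicate block and 37 to 50 without 1 library. For the difference between the drugs it was 216, with 10068 as deposited, 131 with no filter, 181 with the block and 27 to 267 without 1 library (45, 75, 79 and 27 without saline replicates 1 to 4, and 95 without cyclosporine A replicate 1). Same-numbered libraries correlated at -0.15 to 0.21 with cyclosporine A and -0.15 to 0.18 with tacrolimus, which in so few libraries cannot exclude a pairing. The same number was the best match for number 4 with cyclosporine A and numbers 1 and 2 with tacrolimus (r = 0.21, 0.18 and 0.16), and not for the others. The count of members called was 0 for both drugs and for the difference, with 0 to 0 without 1 library, but 6 for cyclosporine A and 4 for the difference as deposited; the 6 became 3 without saline replicate 1 or 4 or cyclosporine A replicate 1 or 2 (3 to 6 over all). Of 426 single-gene values that kept all libraries, 398 had the reported direction and 28 the opposite one.

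The opposite values were, for cyclosporine A as deposited, Edn1 -0.0715, Nos3 -0.33, Ptgs1 -0.83, Vegfa -1.01, Gucy1a1 -0.26, Gucy1b1 -0.12, Cav1 -0.66, Ptges -0.31, Ptger1 -1.01, Tbxa2r -0.24 and Kdr -0.56; relative to nuclear fragments Ednrb 0.0168 and Tbxas1 0.0191; with arrayWeights Nos3 -0.00952 and Ptger1 -0.0404; and with voom Nos3 -0.0273 and Ptger1 -0.0425. With tacrolimus they were Edn1 -0.00164 relative to all fragments and -0.00377 with voom, and with arrayWeights Ptgs1 0.00407 and Kdr -0.00115. For the difference as deposited they were Edn1 -0.0744, Ednrb -0.77, Nos3 -0.0950, Ptgs1 -0.79, Ptgs2 -0.12 and Vegfa -0.95, and with pseudocount 0.1 Ptgs2 -0.25. The cause was not tested beyond the scaling itself. Without 1 library the changes that turned ran, with cyclosporine A, from -0.18 to 0.0302 for Ednra, -0.28 to 0.16 for Ednrb, -0.0433 to 0.23 for Nos3, -0.10 to 0.0175 for Ptgs2, -0.36 to 0.0170 for Ddah1, -0.11 to 0.0807 for Tbxas1, -0.0930 to 0.33 for Ptger1, -0.0804 to 0.15 for Tbxa2r and -0.15 to 0.0199 for Flt1; with tacrolimus from -0.0590 to 0.0441 for Edn1, -0.0974 to 0.00895 for Ptgs1, -0.0933 to 0.00514 for Vegfa, -0.0327 to 0.0930 for Ptgis and -0.0227 to 0.0827 for Kdr; and for the difference from -0.17 to 0.27 for Ednrb and -0.0344 to 0.12 for Ptgs2.

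Ptges with cyclosporine A was called in 4 of 17 alternatives (adjusted p 0.0191 to 0.296) and Ptger4 with tacrolimus in 6 of 20 (0.00671 to 0.104). Depth limits the low members most: Edn1, Ednra, Nos1 and Ptgs2 had under 100 fragments in every library of the cyclosporine A table. For Ednra these are the smallest counts that its values allow.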

Other observations

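Pgf, a placental relative of Vegfa that binds Flt1, was chosen after its values were seen. It had 53, 25, 9 and 15 fragments with saline and 0, 1, 0 and 0 with cyclosporine A, and was too low to be tested. In the tacrolimus table it read 2.08 ± 0.796 FPKM with vehicle and 1.97 ± 0.482 with tacrolimus (SD, n = 6, limma adjusted p = 0.983). Qdpr, which regenerates the cofactor of nitric oxide synthase, and Asl, which makes its substrate arginine, were also chosen after their values were seen. Qdpr was 93.3 ± 6.34 rescaled FPKM with saline and 64.0 ± 12 with cyclosporine A and Asl 16.3 ± 2.11 and 23.9 ± 5.51 (SD, n = 4), without overlap in either case, against 6.11% of all genes tested without overlap and lower and 4.81% without overlap and higher. Neither was called on that scale (limma adjusted p = 0.104 and 0.152). As deposited both were called lower, Qdpr at -1.87 (limma adjusted p = 0.000571) and Asl, in the opposite direction to its rescaled change of 0.51, at -0.75 with overlapping groups (limma adjusted p = 0.0299), as were 80.9% of all genes.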
